A study of Saccharomyces cerevisiae with 10 samples.

Results

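The loss of SET5 in budding yeast that already lacked SET1 was followed by comparing the transcript levels of the double deletion set1∆ set5∆ with those of the single deletion set1∆. Features were kept where the mean over the 5 strains of the study reached 1 FPKM, a unit that scales reads to transcript length and library size, which left 6541 of 6663. The difference of each was expressed as the log2 ratio of set1∆ set5∆ over set1∆ after 1 FPKM was added to both values, so that 1 is a 2-fold higher and -1 a 2-fold lower level. The addition understates the difference of scarce transcripts. The features nearest the limit were REC8 and YLR334C, kept with means of 1.005 and 1.01 FPKM, and YDL022C-A and MEI5, left out at 0.992 and 0.979.

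RNA of Saccharomyces cerevisiae was sequenced from 5 haploid strains of the BY4741 background: WT, set1∆, set5∆, set1∆ set5∆ and SET5 Y402A, whose Set5 carries a substitution. Cells of every strain grew in rich glucose medium (YPD) at 30 °C to mid-log phase, and the labels give 2 biological replicates of each strain. The table holds 1 combined FPKM per gene and strain, so no difference below has a replicate check, no test was possible, and the depth behind each value is unknown. The set1∆ and set1∆ set5∆ strains share the SET1 deletion and every allele of the background, and differ, per the labels, in SET5 alone.

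Set1 methylates lysine 4 of histone H3, within the COMPASS complex, at active genes. Set5 methylates lysines in the tail of histone H4. Iron supply in yeast is governed by the activators Aft1 and Aft2, which turn on siderophore capture, reductive uptake and the sparing of iron when iron is short, through promoter sites with the core CACCC.

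The targeted genes matched the labels. SET5 stood at 34.6 FPKM in WT, 37.8 in set1∆ and 41.8 in SET5 Y402A, against 0.0545 in set5∆ and 0.0167 in set1∆ set5∆. SET1 stood at 24.3, 24.2 and 25.6 FPKM in WT, set5∆ and SET5 Y402A, against 0.0328 in set1∆ and 0.0324 in the double deletion. The neighbours of SET5 differed little, with log2 ratios of 0.04 for SKN7, 0.09 for BAT1, 0.12 for CRG1 and 0.14 for SCH9. Markers of MATa cells were abundant in every strain, with STE2, the receptor for alpha factor, between 620.4 and 750.4 FPKM. Of the markers of alpha cells, STE3, their receptor, lay between 1.99 and 5.80 and MF(ALPHA)1 between 1.19 and 8.83. SAG1 and MF(ALPHA)2 were higher in every strain, at 19.3 to 25.4 and 23.4 to 32.9 FPKM. Of the genes deleted in the background, LEU2 reached at most 0.707 and MET17 at most 0.0926 FPKM, while HIS3, which is only partly deleted there, stood between 76.8 and 134. URA3 was not analysed here.

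Few transcripts differed by a large factor. The ratios centred on 0, with 37 features (0.566%) past 2-fold on the higher side and 23 (0.352%) on the lower side. The deleted SET5 itself, at -5.26, is counted on the lower side. At 1.5-fold the counts were 67 (1.02%) and 55 (0.841%). Most of these were short, scarce or unmatched: 24 of the 60 had coding sequences under 300 bp, 25 had no coding length in the RefSeq R64 annotation, 16 stayed below 10 FPKM and 19 had a value of 0 in set1∆ or set1∆ set5∆. TEF1 and TEF2, near-identical genes of elongation factor 1A, were listed at 0 in set1∆ set5∆ and at 10494 and 10890.0 FPKM in set1∆. An exact 0 can be a failed estimate, so those features are not given a fold. Coding genes of at least 300 bp, with at least 10 FPKM in the higher of set1∆ and set1∆ set5∆ and above 0 in every strain, numbered 5123 without SET1 and SET5. Of these 5 (0.0976%) were higher past 2-fold and 0 (0%) lower. At 1.5-fold 13 (0.254%) were higher and 3 (0.0586%) lower. The ratios of these 5123 genes had an SD across genes of 0.134 and a range from percentile 1 to percentile 99 of -0.29 to 0.41. That spread is between genes and says nothing of the spread between cultures.

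**Figure D1:**
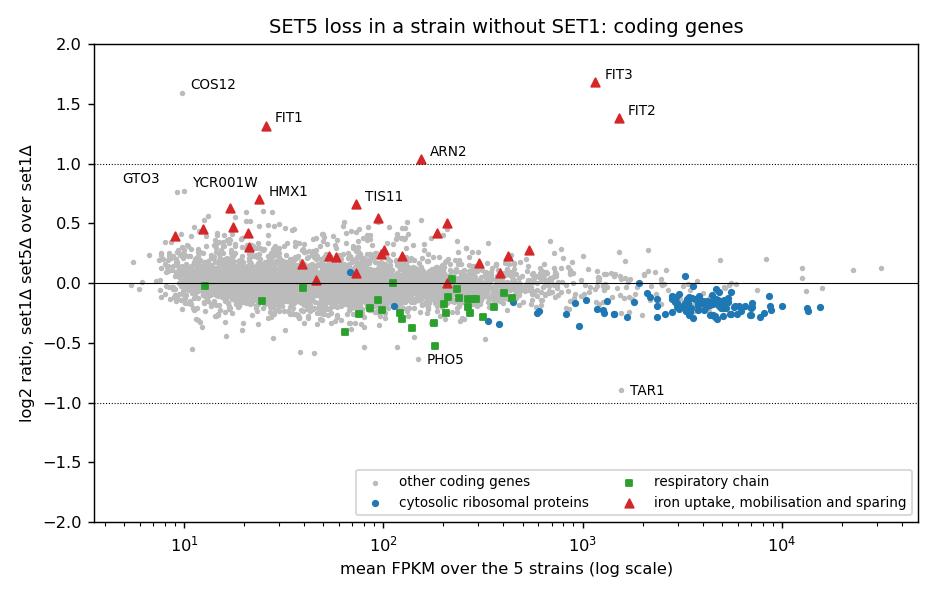
Log2 ratio of set1∆ set5∆ over set1∆ (vertical axis) against the mean FPKM of the 5 strains (horizontal axis, log scale) for the 5123 coding genes of at least 300 bp. Red triangles are genes of iron uptake, mobilisation and sparing, blue points cytosolic ribosomal proteins, green squares the respiratory chain, and dotted lines mark 2-fold. FIT3, COS12, FIT2, FIT1 and ARN2 lie above the upper line and no gene lies below the lower one.

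Iron genes were 4 of the 5 restricted coding genes at least 2-fold higher. Of these 5, FIT3, FIT2, FIT1 and ARN2 act in the capture and import of siderophores, the iron chelators of microbes, and the other was COS12, of a family of membrane proteins encoded near chromosome ends. With a pseudocount of 10 in place of 1, ARN2 at 0.97 and COS12 at 0.99 fell short of 2-fold. HMX1, TIS11 and FRE3 brought the iron genes to 7 of the 13 that were at least 1.5-fold higher. The 5 lists of iron uptake, mobilisation and sparing held 28 genes among the 5123, and 13 of these 28 lay above percentile 99, where 52 genes lay in all. The lists were written from textbook targets of Aft1 and Aft2 with earlier results of these values known, so their direction is a description.

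The promoters of the genes that differed most are shown because they carry a word known from Aft sites. The word TGCACCC was searched on both strands in the 500 bases before each start codon of the RefSeq R64 assembly. It overlaps no other word searched. It was present before 140 of 6002 nuclear protein-coding genes (2.33%), before 22 of the 30 genes of the 5 iron lists (73.3%) and before 7 of the 15 coding genes with the highest ratios, beside 1 of the 15 lowest, WSC4. The iron lists were written from targets of Aft1 and Aft2, so a high share among them was fixed by their choice. All 7 of the highest with the word belong to these lists, so that count is not separate support. The sequences below are 29 bases of each promoter, read on the coding strand of the gene 5′ to 3′, with the word or its reverse complement GGGTGCA in capitals. Each number in a name is the distance of the first capital from the start codon, in bases.
FIT3 (chromosome XV, minus strand, 285): agattttttttTGCACCCtgtttgttccg
FIT3 (chromosome XV, minus strand, 184): attctaggaaaGGGTGCAaaaaaatgggg
FIT1 (chromosome IV, minus strand, 284): taactatgccgTGCACCCtgttccgcacc
FIT1 (chromosome IV, minus strand, 182): gttctaggaaaGGGTGCAaaaaaatgaat
FIT2 (chromosome XV, plus strand, 266): atttaaaacaaTGCACCCtaagttcaaat
FIT2 (chromosome XV, plus strand, 249): ctaagttcaaaTGCACCCcccctcgcccc
ARN2 (chromosome VIII, minus strand, 447): aatcagaaaatGGGTGCAgttcttagttc
TIS11 (chromosome XII, minus strand, 249): ccgccgcaaaaTGCACCCacattaaagaa
HMX1 (chromosome XII, minus strand, 451): ctaacaggtgcGGGTGCAagtttactaga
LSO1 (chromosome X, minus strand, 145): atcgagaatgtTGCACCCttttttccaat
FIT2 held 4 matches in all, of which 2 are printed, and TIS11 held 2, of which 1 is printed. The FIT1 and FIT3 windows nearest the start codon were identical at 25 of 29 bases, and the farther pair at 15 of 29. The 2 FIT3 windows are also the 2 windows of FRE5, which lies next to FIT3 and is transcribed away from it. COS12 had no match in its window. A match is a description of the letters and not evidence of a bound site.

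Among the iron genes the 22 with the word had a median log2 ratio of 0.44 and the 8 without it one of 0.12. Outside the 5 iron lists, the 94 coding genes of the restricted set that held the word had a median of 0.02, beside -0.00 for the set as a whole. Outside the iron lists the ratio thus differed little with the word.

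The cell wall mannoproteins FIT1, FIT2 and FIT3, which retain siderophore iron in the wall, had the highest ratios of any group. FIT3 stood at 1169 FPKM in WT, 505 in set1∆, 1411 in set5∆, 1619.6 in set1∆ set5∆ and 1096 in SET5 Y402A. The double deletion was highest and set1∆ lowest, at a ratio of 1.68 between them. FIT2 stood at 1368, 872, 1700.2, 2266 and 1369 FPKM in the same order, with the same strains at the extremes and a ratio of 1.38. FIT1 was far scarcer, at 13.4, 22.7, 19.4, 58.0 and 15.001 FPKM, and for this gene WT and not set1∆ was lowest. Its ratio was 1.32, and 88.1% of its 50-base words were found once in the genome, so some of its reads may belong elsewhere.

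All 4 siderophore transporters of the plasma membrane or endosome were higher, with a median of 0.52, against 50.1% of all features higher by any amount and a median of 0.00. ARN2, which imports triacetylfusarinine C, stood at 145 FPKM in WT, 96.9 in set1∆, 182 in set5∆, 199 in set1∆ set5∆ and 147 in SET5 Y402A, a ratio of 1.03. ARN1, the ferrichrome transporter, stood at 96.4, 72.9, 103, 107 and 90.3 FPKM in that order, a ratio of 0.54. For both genes set1∆ was lowest, and the double deletion lay above WT by less than it lay above set1∆. SIT1, the ferrioxamine transporter, differed from them in that set1∆ at 222 FPKM was already above WT at 183, and the double deletion stood at 315, a ratio of 0.50. ENB1, the enterobactin transporter, stood at 151 FPKM in set1∆ and 202 in both set5∆ and set1∆ set5∆, a ratio of 0.42.

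Reductive uptake, in which surface reductases free ferric iron and the Fet3 oxidase and Ftr1 permease carry it in, was higher in 8 of 9 genes with a median of 0.30 and none at 2-fold. The reductase genes were FRE3 (0.63), FRE4 (0.47), FRE5 (0.42), FRE2 (0.39) and FRE1 (0.09), in falling order of their log2 ratios. FRE3 stood at 9.98 FPKM in set1∆ and 16.0 in set1∆ set5∆, beside 18.8 in WT and 21.7 in set5∆, so the double deletion stayed below both strains with SET1. The abundant FET3 stood at 560 FPKM in WT, 496 in set1∆, 553 in set5∆, 602 in set1∆ set5∆ and 488 in SET5 Y402A, a ratio of 0.28. FTR1 had a ratio of 0.23 and CCC2, which loads Fet3 with copper, one of 0.30. ATX1, the copper chaperone upstream of CCC2, was the exception at -0.17, and its coding sequence of 222 bp is shorter than the restricted set allows.

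The 6 genes of vacuolar and mitochondrial iron handling were all higher, by less. FTH1 (0.27) and FET5 (0.22), the permease and oxidase of the vacuole, FRE6 (0.22), its reductase, SMF3 (0.22), another vacuolar exporter, and COT1 (0.25), which moves metals into the vacuole, lay close together. MRS4, a mitochondrial carrier, stood at 0.03, and the median was 0.22.

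Genes that spare or recycle iron were higher in 8 of 8 cases, with a median of 0.31. TIS11, whose protein binds and destabilises messenger RNAs of iron-using pathways, stood at 73.1 FPKM in WT, 65.6 in set1∆, 63.2 in set5∆, 104 in set1∆ set5∆ and 56.9 in SET5 Y402A, a ratio of 0.66. Its paralogue CTH1 had a ratio of 0.08. HMX1, the heme oxygenase that recovers iron from heme, stood at 17.2, 26.3, 15.9, 43.4 and 16.5 FPKM in the same order, a ratio of 0.70. For TIS11 and HMX1 the double deletion was the highest strain and set5∆ lay below WT. BIO5, a biotin precursor transporter, was at 0.45 and VHT1, the biotin transporter, at 0.16, while the scaffold genes of iron-sulfur clusters were at 0.17 for ISU1 and 0.00 for ISU2. LSO1, a short gene of 282 bp, stood at 18.5 FPKM in WT, 8.69 in set1∆, 43.9 in set5∆, 20.9 in set1∆ set5∆ and 35.6 in SET5 Y402A. Its ratios in the 2 backgrounds were close, 1.17 without SET1 and 1.203 with it.

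**Figure D2:**
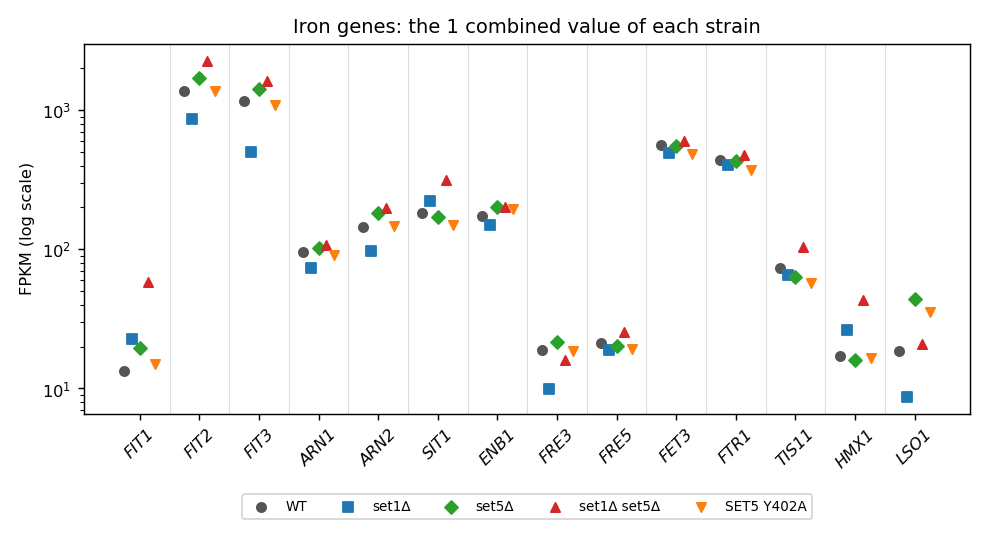
FPKM (vertical axis, log scale) of 14 iron genes, with 1 symbol for the combined value of each of the 5 strains. The double deletion (red triangles) is above set1∆ (blue squares) for each of the 14. For FIT2, FIT3, ARN1, ARN2, ENB1, FRE3, FRE5 and LSO1 set1∆ is the lowest of the 5 strains.

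Over the 5 lists together 29 of 30 genes were higher, 5 of them at least 2-fold, and the median ratio was 0.35. The double deletion had the highest level of the 5 strains for 20 of the 30 (66.7%, against 27.0% of all features kept), and set1∆ the lowest for 14 (46.7%, against 16.9%). The ratio is formed from these same strains, so both shares follow in part from it and add no separate evidence. The regulators and stores of iron did not share the higher ratios, with 5 of 9 higher and a median of 0.04. AFT1, the main activator, stood at 44.5 FPKM in set1∆ and 49.3 in set1∆ set5∆ (0.14), AFT2 was at 0.04, and YAP5, the regulator of the response to high iron, was at 0.18. GRX3 (-0.12), GRX4 (-0.13) and BOL2 (-0.13), which restrain Aft1 in iron-replete cells, were slightly lower, but their partner FRA1 was slightly higher, at 0.12. CCC1, the vacuolar iron importer, was at -0.04. Enzymes that require iron were higher in 11 of 29 cases, with a median of -0.08. After each column was divided by its sum their median was 0.02, beside 0.09 for all features kept. Some of these enzymes, CYC1 and SDH2 among them, are also counted with the respiratory chain below, so the lists are not separate.

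Many iron genes lie towards chromosome ends, and the 12 among the outermost 20 genes of an arm had a median ratio of 0.52, with 12 of 12 higher. The 18 farther in had a median of 0.23, with 17 higher. Other genes of the restricted set among the outermost 20 numbered 419 and had a median of 0.04, beside which the iron genes at the same positions stood higher. On chromosome XV a run of 5 neighbouring genes was higher, FRE3 (0.63), the small open reading frame YOR381W-A (1.15), FIT2 (1.38), FIT3 (1.68) and FRE5 (0.42), and the genes at its borders were RDR1 at 0.12 and YOR385W at -0.05. FIT1 stood between HSP31 at -0.21 and STL1 at 0.15. ARN2 lay between COS8 at 0.29 and PAU13 at -0.23. HMX1 and TIS11 lie far from the ends, and the genes on either side of them had ratios between -0.15 and 0.16.

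Genes nearest the chromosome ends were higher as a group. The first 5 annotated genes of each end had a median ratio of 0.28 (80 genes of the restricted set), genes 6 to 10 had 0.04, genes 11 to 20 had 0.02, and genes beyond the 40th had -0.01. Copies of like sequence are common here, so the first bin was also read from the 27 genes with at least 95% unique sequence, where the median was 0.21, and without the iron genes 25 remained with a median of 0.17. The same bin with SET1 present, set5∆ over WT, had a median of 0.03 over the 80 genes and 0.10 over the 27. Over all 295 kept features among the outermost 10, 220 were higher (74.6%, against 50.1% of all features) and 8 at least 2-fold (2.71%, against 0.566%), with a median of 0.13 that was 0.07 for the 150 with unique sequence.

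COS12, the first annotated gene on the left arm of chromosome VII, stood at 1.86 FPKM in WT, 7.53 in set1∆, 7.06 in set5∆, 24.7 in set1∆ set5∆ and 7.45 in SET5 Y402A. WT was lowest, the 3 strains with 1 altered gene lay close together, and the double deletion was highest, so the ratio for SET5 loss was 1.59 without SET1 and 1.497 with it. All its 50-base words were unique, but only the double deletion exceeded 10 FPKM. Of the 12 COS genes 11 were higher, with a median of 0.28, and the others with unique sequence were COS10 at 0.34, COS111 at 0.03 and COS9 at -0.14. YFR057W, the first gene at the right end of chromosome VI and known as a gene silenced by the Sir proteins, was listed at 0 in WT and set5∆ and stood at 0.986 FPKM in set1∆, 6.57 in set1∆ set5∆ and 0.150 in SET5 Y402A. Its ratio of 1.93 rests on values below 10 FPKM. The 8 YRF1 helicase genes, parts of the Y′ repeats at telomeres, were all higher with ratios between 0.31 and 0.34, but the copies share almost all of their sequence, so these values are not independent.

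Retrotransposon genes were also higher. Of 47 Ty open reading frames kept 44 were higher, against 50.1% of all features, and none by 2-fold. Their median was 0.30, beside 0.03 for set5∆ over WT. All 31 from Ty1 were higher with a median of 0.33, as were all 10 from Ty2 with a median of 0.24, while 1 of 2 from Ty3 and 0 of 2 from Ty4 were. The median level of the Ty1 genes was 72.8 FPKM in WT, 86.7 in set1∆, 76.0 in set5∆, 109 in set1∆ set5∆ and 78.7 in SET5 Y402A, with the double deletion highest. No Ty open reading frame had 95% unique sequence, so single elements cannot be told from their copies and the members counted are not independent.

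The groups that were lower differed by small amounts in nearly all of their members. Of 136 cytosolic ribosomal protein genes 134 were lower, none by 2-fold, with a median ratio of -0.19, where 49.8% of all features were lower by any amount. The large-subunit genes had a median of -0.19 and the small-subunit genes one of -0.20, and genes with an intron (-0.20) and without one (-0.19) did not differ by more. RPS26B stood at 5090.2 FPKM in WT, 4592 in set1∆, 5143 in set5∆, 3717 in set1∆ set5∆ and 5042 in SET5 Y402A, and the double deletion was the lowest of the strains in 131 of the 136 genes. The median was -0.02 once the columns were quantile-normalized, a step that can remove a difference shared by the most abundant genes. After division by column sums it was -0.10, beside 0.09 for all features kept. The sum of FPKM was 2199480 in set1∆ and 2056298 in set1∆ set5∆.

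Respiratory chain genes were lower in 39 of 42 cases, with a median of -0.20, or -0.11 after division by column sums. All 9 genes of complex III (-0.25), all 9 of cytochrome c oxidase (-0.30) and all 15 of the ATP synthase (-0.18) were lower, and 3 of 4 of succinate dehydrogenase (-0.13). The NADH dehydrogenases were higher in 2 of 3 cases, with a median of 0.03. CYC1, the main cytochrome c, stood at 190 FPKM in WT, 214 in set1∆, 172 in set5∆, 148 in set1∆ set5∆ and 186 in SET5 Y402A, a ratio of -0.53. SDH2, the iron-sulfur subunit of succinate dehydrogenase, stood at 51.1, 81.3, 60.6, 60.9 and 66.6 FPKM in that order, a ratio of -0.41. For SDH2 set1∆ was the highest strain and the double deletion lay between WT and set1∆. Mitochondrial ribosomal proteins were lower in 65 of 72 cases, with a median of -0.10, or -0.00 after division by column sums. That division moved the median of all features kept to 0.09, and the medians of both lists stayed below it.

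Coding length moved with the ratio over all genes. The median was -0.10 for the 529 genes of 300 to 500 bp, -0.03 for those of 501 to 1000 bp, 0.01 up to 2000 bp, 0.02 up to 3000 bp and 0.04 above. Ribosomal and respiratory genes are short, so they were set beside other genes of 300 to 1000 bp. The 1700 others had a median of -0.03, the 116 cytosolic ribosomal protein genes -0.19, the 22 respiratory genes -0.20 and the 57 mitochondrial ribosomal protein genes -0.10. After each ratio was centred on genes of like length the medians of the 3 full lists were -0.14, -0.16 and -0.08. The reference genes had at least 300 bp, so members shorter than that were set against the shortest of these and not against their own length. At high abundance the 91 other coding genes above 1000 FPKM had a median of -0.02, beside -0.19 for the 109 ribosomal protein genes above that level.

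**Figure D3:**
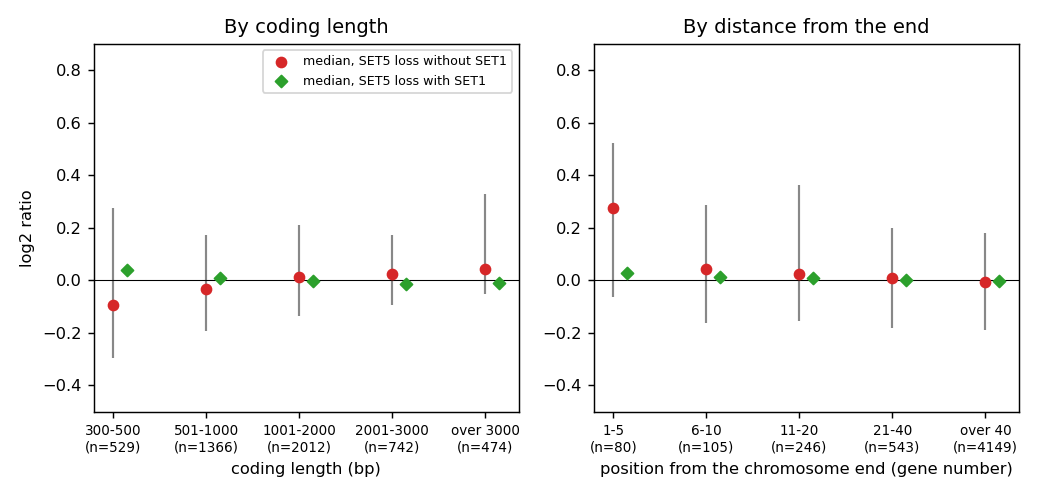
Median log2 ratio (points) of the restricted coding genes by coding length in bp (left) and by gene number from the chromosome end (right), with n under each bin. Red points are set1∆ set5∆ over set1∆, with grey lines from percentile 5 to percentile 95 of its genes, and green diamonds are set5∆ over WT. The red medians go from -0.10 to 0.04 with length, and the outermost 5 genes stand at 0.28.

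**Figure D4:**
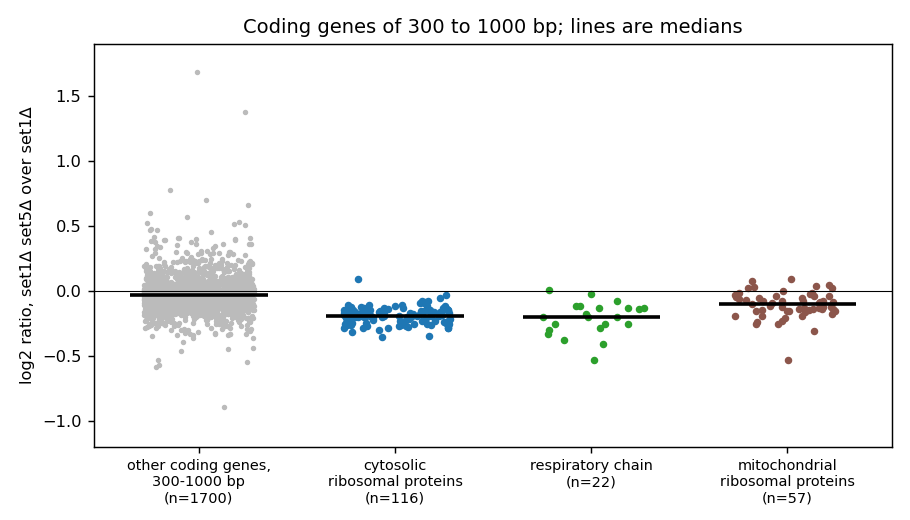
Log2 ratio of set1∆ set5∆ over set1∆ for coding genes of 300 to 1000 bp, 1 point per gene, with horizontal lines at the medians. Cytosolic ribosomal protein and respiratory genes have medians of -0.19 and -0.20, below the -0.03 of the other genes.

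Genes lower by a larger factor were few. TAR1 (-0.90), PHO5 (-0.63) and EST3 (-0.59) were the 3 at least 1.5-fold lower. TAR1 is antisense to ribosomal RNA within the rDNA repeat and had no unique sequence, and the library kit marks no strand, so its reads cannot be told from those of ribosomal RNA. PHO5, the secreted acid phosphatase, stood at 130.1 FPKM in WT, 242 in set1∆, 114 in set5∆, 156 in set1∆ set5∆ and 104 in SET5 Y402A, and PHM6, another target of the phosphate response, at 69.1, 126, 69.0, 86.8 and 47.3. For both, set1∆ was the highest strain and the double deletion the next. SPL2, a regulator of phosphate uptake, was at -0.45 and VTC3, of the polyphosphate polymerase, at -0.25. Of the phosphate list 14 of 19 genes were lower, with a median of -0.08. After division by column sums that median was 0.02, beside 0.09 for all features kept. EST3, a subunit of telomerase, stood at 43.7 FPKM in WT, 40.4 in set1∆, 60.6 in set5∆, 26.6 in set1∆ set5∆ and 53.6 in SET5 Y402A. PRP11, a splicing factor (-0.57), HMO1, a chromatin protein of rDNA and ribosomal protein promoters (-0.47), and WSC4, a cell wall sensor family member (-0.46), were among the 15 lowest, as were YPL257W (-0.55) and MRP2, of the mitochondrial ribosome (-0.54).

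The coding genes at least 1.5-fold higher outside the iron lists, besides COS12, were YCR001W (0.77), GTO3, a glutathione transferase (0.76), GSC2, a glucan synthase subunit (0.60), GPI19, of GPI anchor synthesis (0.60), and YOR338W (0.59). GSC2 stood at 19.0 FPKM in WT, 25.6 in set1∆, 21.2 in set5∆, 39.3 in set1∆ set5∆ and 19.6 in SET5 Y402A, with the double deletion highest. Ribonucleotide reductase genes were higher by less, RNR2 at 0.34 and RNR4 at 0.29. HUG1, a short inhibitor of that enzyme, stood at 1573 FPKM in set1∆ and 2554 in set1∆ set5∆ beside 250.1 in WT, a ratio of 0.70. CAR2 (0.46) and CAR1 (0.38), which break down arginine, and CPA1 (0.33), which acts in its synthesis, had the highest ratios of the arginine list. Of that list 7 of 11 were higher, beside 50.1% of all features.

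The loss of SET5 was then set beside its loss with SET1 present, set5∆ over WT, which uses no column of the ratio above. Across the 5123 coding genes the signs were the same in 46.8%, and Spearman's rho was -0.05, given as a description across genes of 1 value for each strain. With SET1 present 23 of these genes (0.449%) were higher past 2-fold and 0 (0%) lower, and without it 5 and 0. COS12 was the 1 gene in both, which is 20% of the shorter list and 4.35% of the longer. It passed the limit of 10 FPKM through set1∆ set5∆ alone, and its ratio with SET1 rests on 1.86 FPKM in WT and 7.06 in set5∆. The limit was set on set1∆ and set1∆ set5∆, so genes that reached 10 FPKM only with SET1 present are not counted. At 1.5-fold 13 genes were higher without SET1 and 75 (1.46%) with it, again with COS12 as the 1 shared, 7.69% and 1.33% of the lists. No test of the difference between backgrounds was possible.

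The 23 genes at least 2-fold higher with SET1 present had a median ratio of 1.4998 there, by their choice, and of 0.04 without SET1, with 16 of 23 higher. HSP42, a small chaperone that gathers misfolded proteins, stood at 29.0 FPKM in WT and 153 in set5∆, but at 26.7 in set1∆ and 29.0 in set1∆ set5∆. CMK2, a calmodulin-dependent kinase, stood at 35.7 and 181 FPKM with SET1 and at 31.1 and 32.7 without it. HSP30, a plasma membrane stress protein, stood at 17.9 and 93.5 FPKM with SET1 and at 11.2 and 11.4 without. Apart from COS12 the ratio of these genes without SET1 that lay farthest from 0 was 0.39, of RTS3, named after its value was seen.

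**Figure D5:**
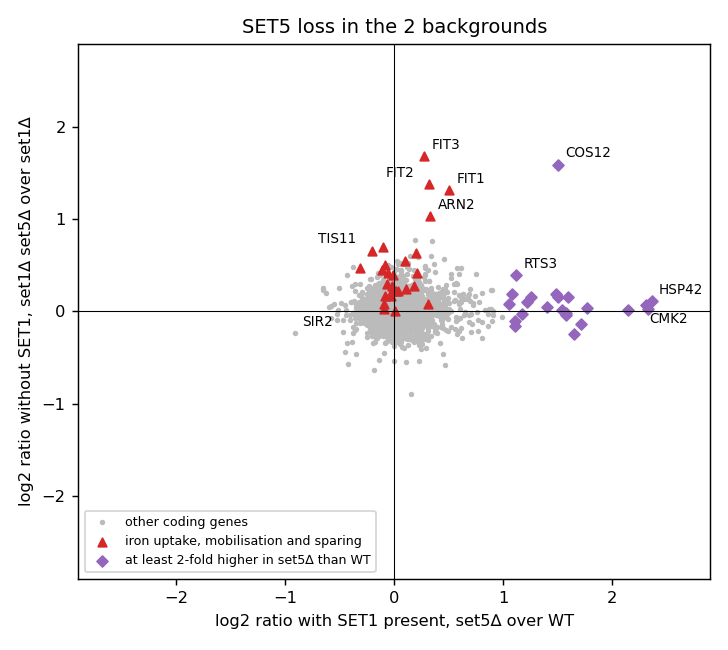
Log2 ratio for SET5 loss without SET1 (set1∆ set5∆ over set1∆, vertical) against that with SET1 (set5∆ over WT, horizontal) for 5123 coding genes, 1 point per gene, with no shared strain between the axes. Purple diamonds, the 23 genes at least 2-fold higher with SET1, lie near 0 on the vertical axis except COS12 at 1.59, and FIT3, FIT2, FIT1 and ARN2 lie above 1 on the vertical axis and between 0.27 and 0.50 on the horizontal one.

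Chaperone genes were higher in 23 of 24 cases with SET1 present, with a median of 0.25 where 50.1% of all features were higher. Without SET1 they were higher in 8 of 24 cases, with a median of -0.03, or 0.07 after division by column sums. That division moved the median of all features kept to 0.09, the reference for the stress and histone medians below too. Genes of the environmental stress response were higher in 30 of 33 cases (0.24) and 15 of 33 (-0.03, or 0.07 after division by column sums), although DDR2 (0.71), a short gene of that list, and HSP12 (0.47), a membrane stress protein, were higher without SET1 too. Histone genes were higher in 9 of 10 cases with SET1 present, with a median of 0.14, and lower in 9 of 10 without it, with a median of -0.14, or -0.04 after division by column sums. Over the 6 with at least 95% unique sequence the median without SET1 was -0.08. All histone genes but HHO1 have 300 to 500 bp, and restricted coding genes of that length had medians of 0.04 with SET1 and -0.10 without it. HHF1, of histone H4, stood at 3921 FPKM in WT, 4575 in set5∆, 2577 in set1∆ and 2189.7 in set1∆ set5∆, so that the strains without SET1 were both lower and in the opposite order. The iron genes as a whole ran the other way, with 15 of 30 higher and a median of -0.00 with SET1, beside 29 of 30 and 0.35 without. The siderophore lists were higher with SET1 too, in 3 of 3 mannoproteins (0.31) and 3 of 4 transporters (0.15). With SET1, reductive uptake was higher in 2 of 9 cases (-0.02), mobilisation in 4 of 6 (0.02) and sparing in 3 of 8 (-0.06). Ribosome biogenesis genes were higher in 10 of 108 cases with SET1 (-0.10) and 72 of 108 without (0.03), and ribosomal proteins had medians of -0.01 and -0.19. SIR2, the silencing deacetylase, stood at 31.4 FPKM in WT, 16.2 in set5∆, 22.4 in set1∆ and 18.9 in set1∆ set5∆, ratios of -0.91 with SET1 and -0.23 without it.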

How the data were processed

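RNA of 5 strains, with 2 replicates each and 10 libraries in all, was sequenced on a HiSeq2000, from libraries made with a TruSeq RNA v2 kit from 8 µg of total RNA, per the labels. The deposited table gives 1 combined value per strain, taken as the authors' FPKM because the values are decimals and the columns sum to over 2056298. Tools named by the submitters' processing notes, without their roles, were Cufflinks 2.0.2 with Cuffdiff, TopHat2 2.0.5, R 2.15.1 and FastQC. Not given in the sources used here were the way replicates were combined, the scaling, build and annotation, so depth is unknown. Unused columns numbered 0.

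Ratios were computed with pandas 2.3.3 (Python 3.11.15) with a pseudocount of 1, and the counting was tested on simulated data. Gene order, coding length, 50-base uniqueness and promoters came from RefSeq R64, where 5934 features were found under their locus tag and 82 under a symbol, while 647 were not found. The table's build is unnamed, so no coordinates are given. Ty members were taken from R64 notes. Named genes were SET1 and SET5, the 15 highest and 15 lowest restricted coding genes, the 5 highest and lowest other features, iron genes, up to 6 members of each other list and those nearest 2-fold. Neighbours were named by position, and the genes high with SET1 present by their ratio there. Members and lists were chosen with earlier results of these data known. The alternatives were other pseudocounts, scalings, low-value filters, fold limits and a uniqueness limit, and length centring was added after the values were seen.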

Additional observations from a re-analysis of the deposited data

Results flagged for a closer look

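Among features above 0 in WT, set1∆, set5∆ and set1∆ set5∆, 3 had ratios past 2-fold in opposite directions with and without SET1, and the difference was not tested. Features listed at 0 in one of those strains were left out. PAU9, a seripauperin of 129 bp with no unique sequence, had a log2 ratio of 1.08 without SET1 and -2.93 with it. YCR038W-A had ratios of -1.41 and 2.34, and the small nucleolar RNA SNR48 had -1.43 and 2.59. SNR48 stood at 117 FPKM in WT, 587 in set1∆, 709 in set5∆, 218 in set1∆ set5∆ and 657 in SET5 Y402A. None of the 3 has a coding sequence of at least 300 bp in the annotation used.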

How the results depend on the processing

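No paired analysis was possible because the table holds 1 combined value per strain, and for the same reason no replicate could be left out. The 37 features at least 2-fold higher became 16 with a pseudocount of 10, 22 with a mean of at least 10 FPKM, 67 at 1.5-fold and 21 among features above 0 in all 5 strains. The 23 lower, with SET5 itself among them, became 55 at 1.5-fold and 10 above 0 in all strains. The 5 coding genes became 3 with a pseudocount of 10, without ARN2 and COS12. The median of cytosolic ribosomal proteins was -0.021 after quantile normalization, and that of the 3 siderophore mannoproteins was 1.53 over the 2 with at least 95% unique sequence. The seripauperin median of 0.23 turned to -0.64 over the 1 gene with such sequence, PAU7. The cause was not tested. Of 447 list medians under alternatives 444 moved by less than 0.134, the SD of ratios across restricted coding genes. Of 1874 gene ratios 1790 did, and no gene ratio past 2-fold changed sign. Many list medians are themselves below 0.134 in size, and a change of sign was counted only for those of at least 0.1. Median centring and division by column sums moved nearly all ratios by less than 0.134, so these counts say little about stability. Division by column sums moved the median of all features by 0.09. Without replicates or counts, no ratio here can be set against error, and values of short, scarce or repeated features are the least certain.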
